A study of Mus musculus with 6 samples.

Results

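Expression of 10 cardiac muscle genes was examined in fetal mouse lungs collected at embryonic stage E16.5: the myosin heavy chains Myh6 and Myh7, the myosin light chains Myl2, Myl4 and Myl7, the thin filament genes Tnnt2, Tnni3 and Actc1, the calcium release channel Ryr2 and the hormone gene Nppa. The members were given by name, and every probe set annotated to exactly 1 of them was taken, which gave 15 probe sets of the 45037 on the array and 10 genes of 18193. The study compared 3 lungs labelled Hopx-/- (Hopx-null) with 3 labelled Hopx+/+ (wild-type), all microdissected, all on a strain background given as mixed, with total RNA on 1 single-channel Affymetrix array per lung. The sources used here do not state the kind of Hopx allele or whether a sample is 1 embryo or a pool, and p-values measure the spread between these samples. Values are expression levels on a log2 scale, so a difference of 1 is a doubling, and signals of different probe sets do not rank transcripts by amount.

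Heart muscle contracts when myosin heavy chains, each carrying light chains, pull on actin filaments that troponin opens to calcium. In the mouse, a sleeve of cardiac muscle surrounds the pulmonary veins and reaches into the lung, and the atria lie against the lung root. Myh6, Myl7, Myl4 and Nppa are best known from atrial muscle and Myh7 and Myl2 from ventricular muscle, without being confined to it in the fetus. Tnnt2, Tnni3, Actc1 and Ryr2 are shared by both. Hopx is a small homeodomain-like protein, expressed in heart as well as in alveolar epithelium, that does not bind DNA itself and is known to restrain serum response factor (SRF), whose DNA element is the CArG box. In whole-lung RNA, fewer cardiac muscle cells and less RNA per cell cannot be told apart.

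Promoters of the members were read from RefSeq (GRCm38.p6), where all 10 genes matched, with 13 gene starts. The 250 bases before each start were searched on both strands for the CArG box, the MCAT element, a GATA-factor element and the TATA box. The sequences below are those of Myl7 (chr11:5898783-5899032, minus strand) and Actc1 (chr2:114052876-114053125, minus strand), the members with a CArG box, and of Nppa (chr4:148000472-148000721, plus strand) and Myh7 (chr14:54994627-54994876, minus strand, the more upstream of its starts), which departed furthest in opposite directions in 1 lung described below. Capitals mark matches to these 4 motifs, none of which overlap in these windows.
Myl7: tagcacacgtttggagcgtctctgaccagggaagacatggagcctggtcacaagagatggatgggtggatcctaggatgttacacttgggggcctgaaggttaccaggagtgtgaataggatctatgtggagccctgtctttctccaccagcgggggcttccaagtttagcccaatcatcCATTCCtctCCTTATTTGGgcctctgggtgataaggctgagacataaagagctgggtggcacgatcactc
Actc1: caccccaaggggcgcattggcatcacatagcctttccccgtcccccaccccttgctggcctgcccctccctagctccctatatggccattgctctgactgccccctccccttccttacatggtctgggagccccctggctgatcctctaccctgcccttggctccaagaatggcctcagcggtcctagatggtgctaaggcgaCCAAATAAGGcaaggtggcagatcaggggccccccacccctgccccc
Nppa: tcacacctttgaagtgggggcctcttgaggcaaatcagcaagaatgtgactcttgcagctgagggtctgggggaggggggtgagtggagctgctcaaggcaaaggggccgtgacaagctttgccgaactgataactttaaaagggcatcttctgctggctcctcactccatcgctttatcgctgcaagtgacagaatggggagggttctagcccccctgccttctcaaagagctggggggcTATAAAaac
Myh7: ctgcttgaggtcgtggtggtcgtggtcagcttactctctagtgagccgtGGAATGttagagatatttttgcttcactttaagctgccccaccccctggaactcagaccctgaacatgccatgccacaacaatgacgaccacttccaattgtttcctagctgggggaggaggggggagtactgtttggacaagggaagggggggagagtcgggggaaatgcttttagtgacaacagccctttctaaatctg
A CArG box was found in 2 of the 13 windows, 61 to 52 bases before the start of Myl7 and 47 to 38 bases before that of Actc1, and in 1.47% of all 32851 promoter windows of that length. The MCAT element, searched as GGAATG, was found in 4 of the 13 windows (Tnnt2, Myl7, Myh6 and Myh7) and in 12.6% of all windows. A TATA box, searched as TATAAA, was found in 2 of the 13 windows (Nppa and Myl2) and in 12.4% of all windows. Those matches lay 9 to 4 bases before the start of Nppa and 216 to 211 bases before a start of Myl2. The GATA-factor element, searched as AGATAA, was found in 2 of the 13 windows (Tnnt2 and Myl2) and in 9.99% of all windows. The E-box, searched as CANNTG, and the core of the Nkx2-5 element, searched as AAGTG, were not capitalised. They were found in 11 and 7 of the 13 windows (8 and 6 member genes) and in 66.2% and 40.7% of all windows. These are letter matches, with no measurement of binding.

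The labels were checked first. At the more responsive of its 2 probe sets, Hopx read 4.59, 4.59 and 4.96 in the Hopx-null lungs and 10.96, 10.59 and 10.41 in the wild-type lungs. The other set read 10.35 to 10.64 and 12.26 to 12.50. Lung identity was clear in all 6 samples, with 11 of 11 lung epithelial genes, Sftpc and Nkx2-1 among them, above the array median in each. Correlations between arrays ran from 0.989 to 0.995. Signal from Y-linked genes was present in wild-type replicates 2 and 3 and in no other sample. Wild-type replicate 3 stood apart: 113 probe sets were at least 1 log2 unit above every other sample there and 80 at least 1 below, against 0 to 13 above and 16 to 28 below in each of the other 5 samples. Results are therefore also given without wild-type replicates 1 or 3. Without wild-type replicate 1, every wild-type lung had Y-linked signal and no Hopx-null lung did. That fit therefore cannot tell genotype from Y-linked signal.

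Cardiac muscle RNA was plainly measurable in every lung. The brightest probe set of 8 of the 10 genes exceeded the array median (6.67 to 6.72) in all 6 samples, and none fell below the lower quartile (4.24 to 4.30) in any sample. Between genotypes, 0 of the 10 genes and 0 of the 15 probe sets passed limma's test (Benjamini-Hochberg over all probe sets, smallest adjusted p = 0.878), where 0.00444% of all probe sets passed, these being the 2 of Hopx. At an unadjusted limma p under 0.05 stood 1 of the 10 genes, Myh7, against 4.77% of all probe sets. In limma Myh7 stayed under 0.05 unadjusted with trend and robust variance (0.0335), repeated quantile normalization (0.0457) and median centring (0.0456). It also did with the dim-probe filters (0.0491 and 0.0495) and without wild-type replicate 3 (0.045). In several other limma fits it did not. With wild-type replicate 1 or any 1 Hopx-null lung left out it was 0.0605 to 0.123. It was 0.0565 with array weights, 0.0565 with the replicate block and 0.25 with a covariate for Y-linked signal. With that covariate 4 other members stood under 0.05 unadjusted (Myh6, Myl7, Myl4 and Tnni3), and without wild-type replicate 2 both Myh7 and Myl2 did. The share of all probe sets under 0.05 unadjusted was not counted in these alternatives. The level was higher on average in Hopx-null lungs for 8 of 10 genes, under both other scalings of the arrays too, against 51.4% of all probe sets, with a median log2 difference of 0.14 against 0.01. That direction rested on single lungs: without wild-type replicate 1 it held for 4 of 10 genes (median -0.01, 52.4% of all probe sets), and without wild-type replicate 3 for 10 of 10 (median 0.30, 50.6% of all probe sets). In those settings 0 of 10 genes passed limma as well, against 0.0511% and 0.00222% of all probe sets. Without wild-type replicate 1, genotype and Y-linked signal coincided and cannot be told apart. The precision allowed 95% intervals of the difference from ±0.29 for Actc1 to ±2.32 for Nppa.

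**Figure D1:**
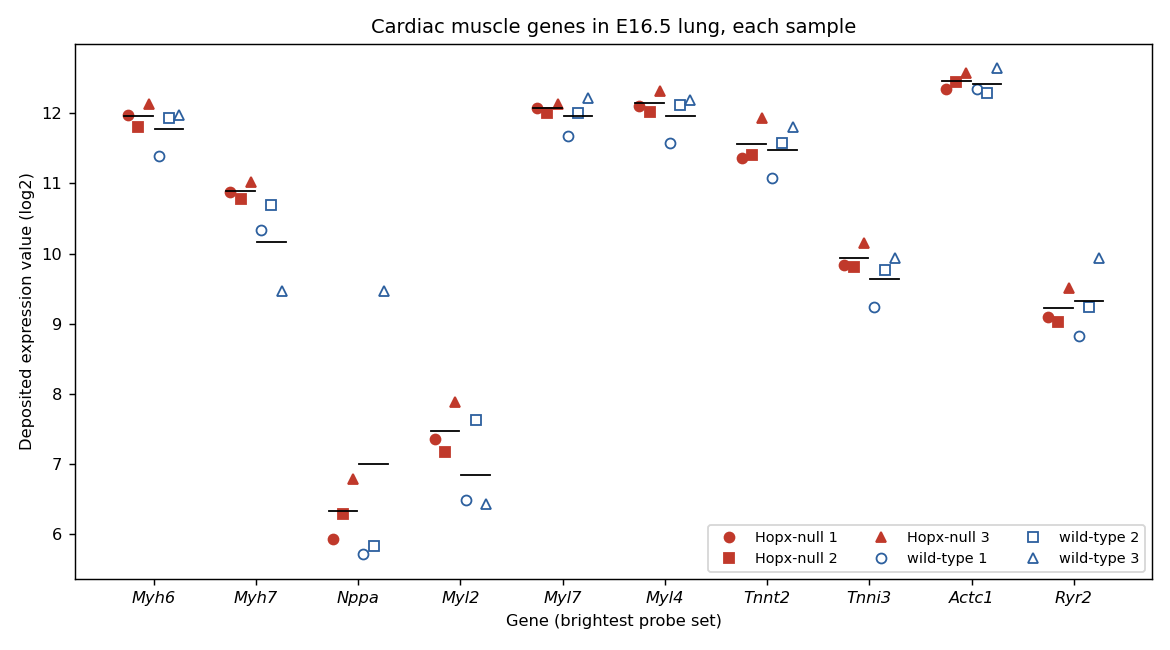
Deposited log2 expression value (vertical axis) of the brightest probe set of each of the 10 cardiac muscle genes (horizontal axis). Filled red symbols are the 3 Hopx-null lungs, open blue symbols the 3 wild-type lungs, and black bars the mean of each genotype. The genotypes overlap for every gene but Myh7, and wild-type 3 lies far above the rest for Nppa and far below for Myh7.

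Of the motors, Myh6 encodes alpha myosin heavy chain, the fast form. Its level was 11.97, 11.80 and 12.13 in the Hopx-null lungs and 11.39, 11.93 and 11.98 in the wild-type lungs, in replicate order here and throughout. Wild-type replicate 1 was lowest by 0.57 against the mean of the other 5, and the genotypes overlapped. The log2 difference was 0.20 (SE 0.18, 95% interval -0.23 to 0.63, n = 3 per genotype, limma adjusted p = 0.891). The second, much dimmer Myh6 probe set ranged from 4.94 in wild-type replicate 1 to 6.01 in Hopx-null replicate 3, with a log2 difference of 0.14 (SE 0.28).

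Myh7 encodes beta myosin heavy chain, the slow form that dominates fetal ventricles. Its own probe set read 10.87, 10.77 and 11.02 in Hopx-null lungs and 10.33, 10.69 and 9.46 in wild-type lungs. It was the only member whose genotypes did not overlap, with the Hopx-null lungs higher as in 5.6% of all probe sets, and the gap between the nearest samples of the genotypes was small. The log2 means were 10.89 ± 0.13 (SD, n = 3) and 10.16 ± 0.63 (SD, n = 3), a difference of 0.73 (SE 0.30, 95% interval 0.02 to 1.44). In limma the Benjamini-Hochberg adjusted p was 0.878 and the unadjusted value 0.0455. An exact two-sided permutation test gave p = 0.1, the smallest that 3 against 3 samples allow. Without wild-type replicate 3 the log2 difference was 0.38. A pair of further sets is annotated to Myh6 and Myh7 together and were kept out of the members. The brighter of them read 10.94, 10.77 and 11.16 in Hopx-null lungs and 10.37, 10.82 and 10.83 in wild-type lungs. There wild-type replicate 3 was 0.02 above the mean of the other 5 lungs. The dimmer of them read 6.44, 6.13 and 6.74 in Hopx-null lungs and 5.73, 6.33 and 6.07 in wild-type lungs, with wild-type replicate 3 below that mean (-0.21).

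Among the light chains, Myl7 encodes the atrial regulatory chain. Its level was 12.07, 12.00 and 12.13 in Hopx-null lungs and 11.67, 12.00 and 12.21 in wild-type lungs. The wild-type values lay on both sides of the Hopx-null values, which spanned a narrow range. The log2 difference was 0.11 (SE 0.15, 95% interval -0.24 to 0.45, adjusted p = 0.920).

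Myl4, the atrial essential chain that is also made in embryonic muscle, read 12.10, 12.02 and 12.31 in Hopx-null lungs and 11.57, 12.12 and 12.19 in wild-type lungs. Only wild-type replicate 1 fell outside the range of the Hopx-null lungs. The log2 difference was 0.18 (SE 0.18, 95% interval -0.25 to 0.62, adjusted p = 0.895), and a second Myl4 probe set, between 4.60 and 5.09 and thus close to the lower quartile of the arrays, differed by 0.06 (SE 0.15).

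Myl2, the ventricular regulatory chain, had a much lower probe signal. It read 7.35, 7.17 and 7.89 in Hopx-null lungs and 6.48, 7.63 and 6.43 in wild-type lungs. Wild-type replicates 1 and 3 were low and nearly equal, while wild-type replicate 2 lay within the Hopx-null range. The log2 difference was 0.63 (SE 0.35, 95% interval -0.22 to 1.47, adjusted p = 0.878).

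In the thin filament, Tnnt2 encodes cardiac troponin T, which anchors the troponin complex to tropomyosin. Its brightest probe set read 11.36, 11.40 and 11.93 in Hopx-null lungs and 11.07, 11.57 and 11.80 in wild-type lungs. Hopx-null replicate 3 and wild-type replicate 3 were both high and wild-type replicate 1 low, with a log2 difference of 0.08 (SE 0.23, adjusted p = 0.963). A second bright Tnnt2 set followed the same order at its extremes, from 10.26 in wild-type replicate 1 to 11.01 in Hopx-null replicate 3, and differed by 0.06 (SE 0.21). A dim set, between 4.46 and 4.73, differed by -0.11 (SE 0.10).

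Tnni3 encodes cardiac troponin I, the inhibitory subunit and the isoform that gains ground as the heart matures. It read 9.83, 9.81 and 10.15 in Hopx-null lungs and 9.24, 9.76 and 9.94 in wild-type lungs. Wild-type replicate 1 was again the lowest, 0.66 below the mean of the other 5. The log2 difference was 0.29 (SE 0.20, 95% interval -0.19 to 0.76, adjusted p = 0.878).

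Actc1, cardiac alpha-actin, was the steadiest member. It read 12.34, 12.45 and 12.57 in Hopx-null lungs and 12.34, 12.29 and 12.64 in wild-type lungs, a range of 0.35 over all samples. Actc1 also serves embryonic skeletal muscle. The log2 difference was 0.03 (SE 0.12, 95% interval -0.26 to 0.32, adjusted p = 0.975), which bounds any change more tightly than for the other members.

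Ryr2 encodes the channel that releases calcium from the sarcoplasmic reticulum in heart muscle. It read 9.10, 9.03 and 9.51 in Hopx-null lungs and 8.82, 9.24 and 9.94 in wild-type lungs. Both the lowest and the highest value belonged to wild-type lungs, and the log2 difference was -0.12 (SE 0.29, 95% interval -0.80 to 0.57, adjusted p = 0.956). A dimmer Ryr2 set was likewise lowest in wild-type replicate 1 (4.59) and highest in wild-type replicate 3 (6.03), and differed by -0.21 (SE 0.33).

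Nppa encodes atrial natriuretic peptide, the hormone stored in atrial muscle cells. It read 5.93, 6.28 and 6.78 in Hopx-null lungs and 5.71, 5.83 and 9.47 in wild-type lungs. A single lung, wild-type replicate 3, carried the high value, and the other 5 lay close to or below the array median. The genotype means were 6.33 ± 0.43 (SD, n = 3) and 7.00 ± 2.14 (SD, n = 3), with a log2 difference of -0.67 (SE 0.97, 95% interval -2.99 to 1.65, adjusted p = 0.925). Without wild-type replicate 3 the sign turned, to a log2 difference of 0.56.

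**Figure D2:**
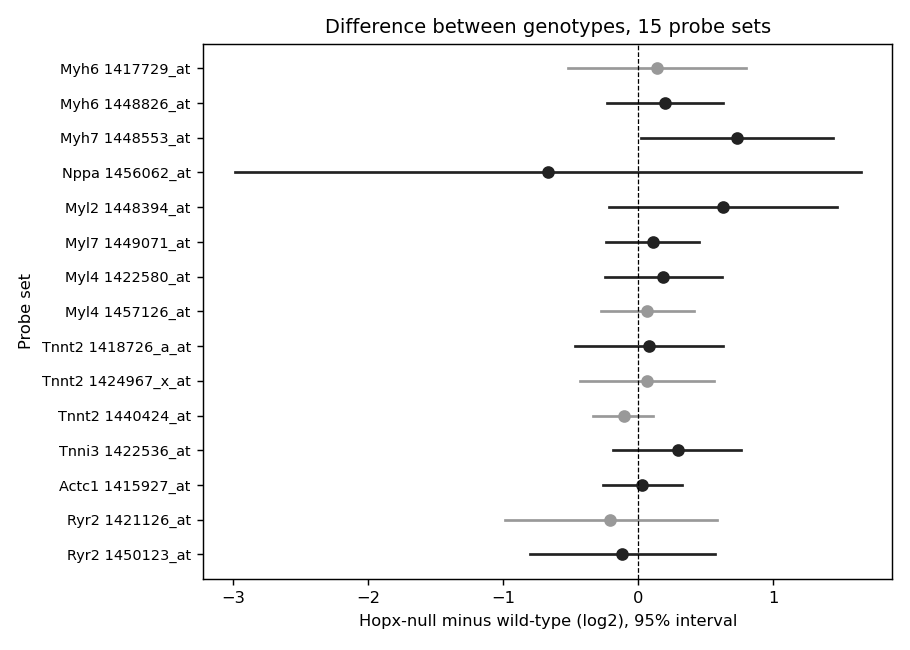
Difference of Hopx-null minus wild-type lungs on the log2 scale (horizontal axis) for the 15 member probe sets (vertical axis), with 95% intervals from limma over 3 lungs per genotype. Black marks the brightest probe set of a gene and grey its other sets. The interval for Myh7 alone lies just off 0 before adjustment, and that for Nppa is the widest.

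Most members varied together across lungs, whatever the genotype. After each gene was centred on its mean over the 6 lungs, the median over the 10 members was 0.05 in Hopx-null replicate 1, -0.02 in replicate 2 and 0.26 in replicate 3. In the wild-type lungs it was -0.46 in replicate 1, 0.02 in replicate 2 and 0.18 in replicate 3. Wild-type replicate 1 was the lowest sample for 7 of 10 members and Hopx-null replicate 3 the highest for 6, wild-type replicate 3 taking the other 4. Over all probe sets, wild-type replicate 1 was lowest in 14.0% and Hopx-null replicate 3 highest in 21.2%. The closest pair of profiles was that of Myh6 and Myl4, with a root mean square difference of 0.0276 between centred values over the 6 lungs. The members furthest from the mean member profile were Nppa (1.15), Myh7 (0.604) and Myl2 (0.506), against 0.0742 to 0.188 for the other 7. Leaving those 3 genes out, the medians were 0.26 in Hopx-null replicate 3 and -0.45 in wild-type replicate 1. Hopx-null replicate 3 also had the largest difference between 3' and 5' control probe sets, 1.51 at the actin controls (other samples 1.15 to 1.25) and 1.72 at the Gapdh controls (other samples 1.42 to 1.60). The part of this in its high values was not tested. Wild-type replicate 1 had the smallest actin difference, 1.15 (other samples 1.17 to 1.51), and a Gapdh difference of 1.46 (other samples 1.42 to 1.72). The part of this in its low values was not tested either.

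**Figure D3:**
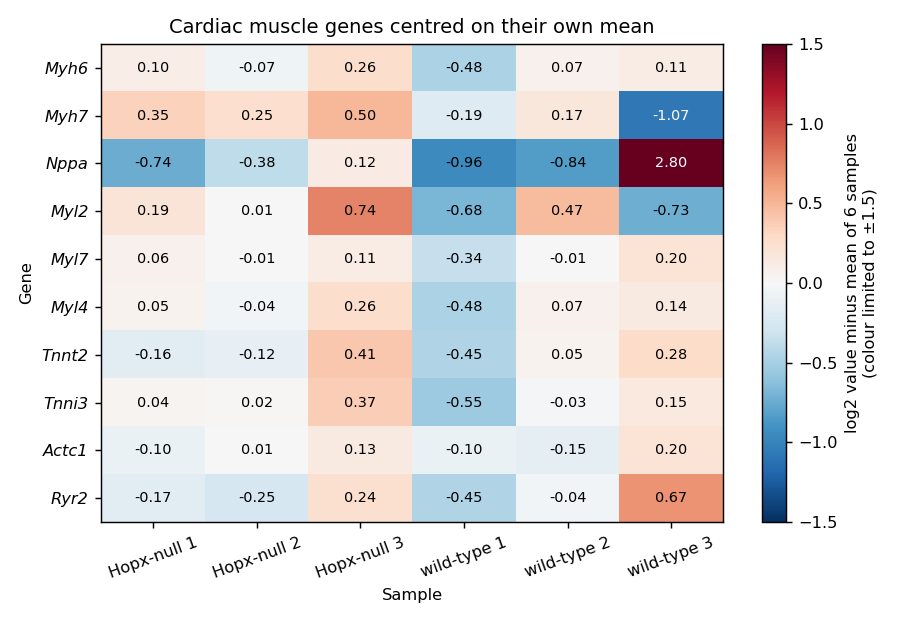
Log2 value of each cardiac muscle gene (rows) in each lung (columns) minus the mean of that gene over the 6 lungs, with the value printed in each cell and the colour scale limited to 1.5 in either direction. The column of wild-type 1 is below 0 for all genes, that of Hopx-null 3 is above 0 for all, and wild-type 3 splits, with Nppa at 2.80 and Myh7 at -1.07.

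In wild-type replicate 3 the members parted. Compared with the mean of the other 5 lungs, Nppa was 3.36 higher on the log2 scale and Ryr2 0.80 higher, while Myh7 was lower (-1.28) and Myl2 was lower (-0.87). Myl7 and Actc1 were each 0.24 higher there and Myh6 0.14 higher. Nppa ranked sixth of all probe sets by how far wild-type replicate 3 stood above its nearest sample, with a gap of 2.69, and Myh7 ranked 124 among those where it stood below, with a gap of 0.87. The other listed cardiac genes were then read in the same lung, a step chosen after these values were seen. Of 61 measured genes in the 4 other cardiac and energy lists, 18 were above all 5 other samples in wild-type replicate 3 and 7 were below all of them, where 19.7% of all probe sets were highest and 22.2% lowest in that lung. Sln, which encodes sarcolipin, an inhibitor of the calcium pump typical of atria, read 8.70 there against 6.36 to 7.73 in the others. Pln, which encodes phospholamban, the related inhibitor best known from ventricles, read 8.64 against 6.33 to 7.72. Nppb, the B-type natriuretic peptide gene, read 5.26 against 4.24 to 4.41. Myl3, the ventricular essential light chain, was the furthest below, at 8.78 against 9.00 to 9.73. For Myl2 the step down from wild-type replicate 1 was small (6.43 against 6.48). Genes typical of either chamber were thus among those higher in this lung, and Myh7, Myl2 and Myl3 were lower, Myl2 only slightly so. This is 1 lung, with no test.

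**Figure D4:**
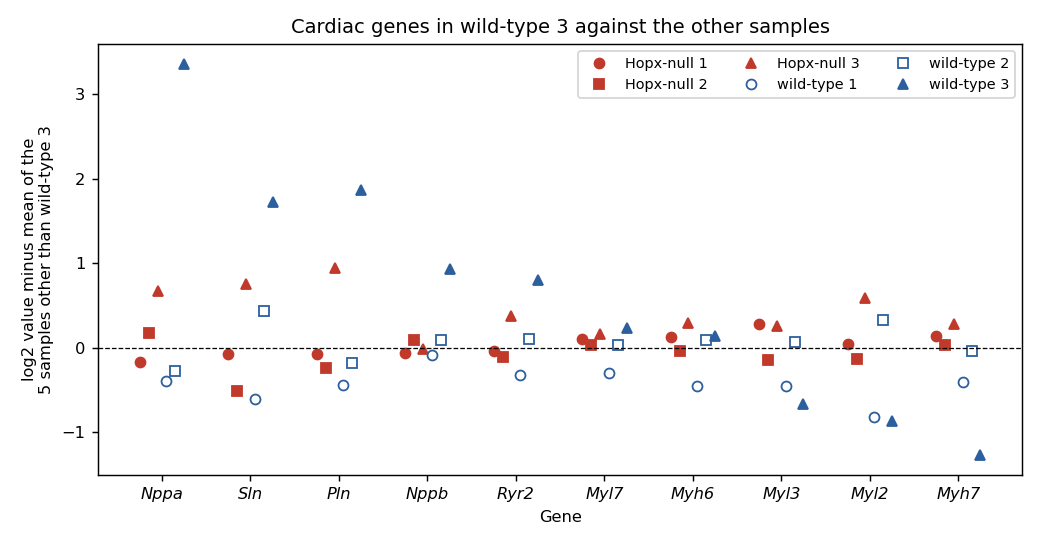
Log2 value of 10 cardiac genes, picked after their values were seen, (horizontal axis) minus the mean of the 5 lungs other than wild-type 3 (vertical axis), with filled blue triangles for wild-type 3, open blue symbols for the other wild-type lungs and red symbols for Hopx-null lungs. Wild-type 3 lies above the other 5 for Nppa, Sln, Pln, Nppb, Ryr2 and Myl7 and below them for Myl3, Myl2 and Myh7.

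Many other heart muscle genes also had their lowest value in wild-type replicate 1 (12 of 16 sarcomere, 9 of 15 calcium handling and 8 of 13 energy genes), as had 5 of 17 cardiac transcription factors and natriuretic partners. So had 5 of 11 smooth muscle and 8 of 23 skeletal muscle genes, against 14.0% of all probe sets. The counts were 2 of 11 for lung epithelial and 0 of 8 for mesothelial and pericardial genes. Of 16 further sarcomere genes, 0 passed in either direction (limma, Benjamini-Hochberg, with 0 at an unadjusted p under 0.05), 12 were higher and 4 lower on average in Hopx-null lungs, and the median log2 difference was 0.15. The largest log2 differences were those of Myoz2, a Z-disc protein gene (0.58, SE 0.25), Myl3 (0.49, SE 0.21) and Lmod2, a regulator of thin filament length (0.41, SE 0.30), each with adjusted p = 0.878 in limma. Without wild-type replicate 1 the median was 0.01. Without wild-type replicate 3 it was 0.32, with 14 of 16 genes higher and 2 at an unadjusted limma p under 0.05. The share of all probe sets under 0.05 in that fit was not counted. Of 15 measured calcium handling and excitation genes, 0 passed and 1 had an unadjusted limma p under 0.05, with a median of 0.02, or -0.10 with wild-type replicate 1 omitted and 0.14 with replicate 3 omitted. That gene was Slc8a1, which encodes the sodium-calcium exchanger, at 7.44, 7.51 and 7.63 in Hopx-null lungs and 7.13, 7.16 and 7.20 in wild-type lungs. Its groups did not overlap and its log2 difference was 0.36 (SE 0.09, adjusted p = 0.878). The other large log2 differences in this list were those of Sln (-0.46, SE 0.60) and of Trdn, the triadin gene (0.25, SE 0.34).

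Of 17 measured cardiac transcription factors and natriuretic partners, 0 passed (limma, 0 also at an unadjusted p under 0.05), with a median log2 difference of -0.01, or -0.08 without wild-type replicate 1, where 2 had an unadjusted p under 0.05, and 0.01 without wild-type replicate 3. The largest log2 differences were Isl1 (-0.76, SE 0.71), Gata4 (0.44, SE 0.26) and Smyd1, a muscle methyltransferase gene (0.35, SE 0.29). Nkx2-5 was below the lower quartile in 4 of 6 samples and Irx4, a ventricular factor, in 6 of 6. Of the 17 genes, 8 were above the array median in every sample. These included Tbx5, Tbx3 and Gata6, which lung also expresses, and Tbx20 (8.31 to 9.11) and Myocd (8.48 to 9.39). Gata4 ran from 5.83 in wild-type replicate 1 to 7.16 in Hopx-null replicate 3. Of 13 muscle energy genes, 0 passed (limma, 0 at an unadjusted p under 0.05), 10 were higher on average, and the median was 0.20, or 0.02 with wild-type replicate 1 omitted and 0.34 with replicate 3 omitted. Cox8b (0.44, SE 0.37) and Cox6a2 (0.36, SE 0.23), muscle forms of cytochrome oxidase subunits, and Popdc2 (0.41, SE 0.26) differed most.

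Markers of other muscle were read beside these. Among 23 skeletal muscle genes, the factors Myog, Myf6 and Pax7 were below the lower quartile in all samples. Of the other factors, Myod1 read 4.88 to 5.04, and Myf5 read 3.48 in wild-type replicate 3 and 5.19 to 5.80 in the other 5 lungs. Altogether 7 of the 23 were below the lower quartile in every sample. The 2 above the median in every sample were Tnnt1 (8.48 to 9.16) and Tnni1 (7.21 to 7.95). The mean level of that list was 5.05 to 5.13 in Hopx-null and 4.93 to 5.15 in wild-type lungs. None of the 23 passed limma's test and 2 had an unadjusted p under 0.05, and the median log2 difference was 0.00. The named genes of that list were Mybpc2 (0.62, SE 0.14), Myl1 (-0.55, SE 0.39) and Myf5 (0.40, SE 0.55). Smooth muscle genes were bright, 11 of 11 above the median in all samples, with mean levels of 10.06 to 10.29 in Hopx-null and 9.95 to 10.28 in wild-type lungs. None of these 11 passed (limma, 0 at an unadjusted p under 0.05), the median log2 difference was 0.03, and the largest were Lmod1 (-0.26, SE 0.20), Myh11 (0.25, SE 0.19) and Actg2 (0.24, SE 0.22).

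The low reading of wild-type replicate 1 differed in size between lists. The median centred level there was -0.46 for the members, -0.48 for the other sarcomere genes and -0.42 for the energy genes. It was -0.20 for calcium handling, -0.07 for cardiac transcription factors and natriuretic partners, -0.21 for smooth muscle, -0.17 for skeletal muscle and 0.04 for lung epithelial genes. In Hopx-null replicate 3 the same medians were 0.26 for the members, 0.23 for the other sarcomere genes, 0.33 for the energy genes, 0.28 for calcium handling and 0.11 for the transcription factors. They were 0.12 for smooth muscle, -0.01 for skeletal muscle and -0.04 for lung epithelium. Differences between lists were not tested. Of the lung epithelial genes 0 of 11 passed, with 1 at an unadjusted limma p under 0.05 (Sox2, -0.77, SE 0.25), and Foxa2 (-0.28, SE 0.16) and Nkx2-1 (-0.23, SE 0.11) followed. For 8 mesothelial and pericardial genes 0 passed (limma, 0 at an unadjusted p under 0.05), with Tbx18 (-0.41, SE 0.36), Lrrn4 (0.32, SE 0.20) and Upk3b (0.25, SE 0.18) differing most. Their median centred level was 0.00 in wild-type replicate 1 and 0.06 in Hopx-null replicate 3. Cartilage genes, found around large airways, and erythroid genes gave 0 of 9 and 0 of 6 (limma, 1 and 0 at an unadjusted p under 0.05), with medians of -1.37 and -0.03. The cartilage median was -2.22 without wild-type replicate 1, where 7 of the 9 genes had an unadjusted limma p under 0.05 and 0 passed after adjustment, and -0.58 without wild-type replicate 3. Cartilage medians were high in wild-type replicates 2 and 3 (1.47 and 1.92) and low in wild-type replicate 1 and Hopx-null replicate 2 (-1.03 and -1.34). As for the members, the lowest lungs included wild-type replicate 1, which was lowest for 5 of the 9, and the highest included wild-type replicate 3, which was highest for 8 of the 9. The part of cartilage in the cardiac values was not tested. The largest log2 differences were Acan (-1.71, SE 0.80), Col9a3 (-1.66, SE 1.01) and Col9a1 (-1.56, SE 1.50) among cartilage genes and Hbb-y (1.17, SE 0.79), Hba-x (0.70, SE 0.64) and Slc4a1 (-0.43, SE 0.22) among erythroid genes.

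**Figure D5:**
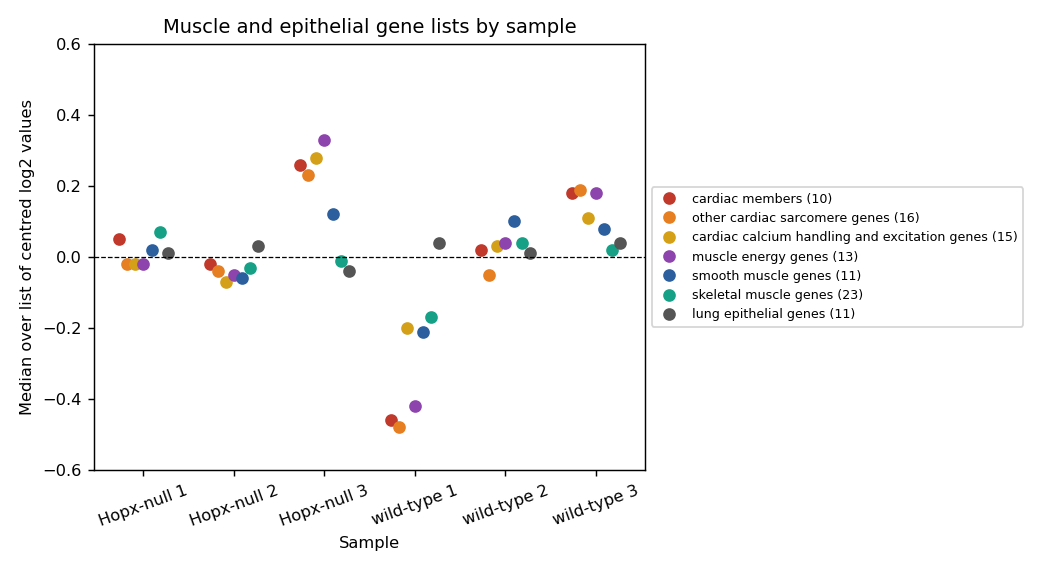
Median over each gene list of log2 values centred on each gene's mean over the 6 lungs (vertical axis), by lung (horizontal axis), with the number of measured genes in brackets. Members, other sarcomere genes and energy genes are lowest in wild-type 1, at -0.42 to -0.48, and highest in Hopx-null 3, while lung epithelial genes stay within 0.04 of 0.

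The genes whose profile over the 6 lungs was most like the mean member profile were sought among 1492 genes with a range of at least 1 log2 unit. The root mean square difference of centred values for the nearest 10 ran from 0.116 to 0.144. Of these 10, 6 belonged to the heart and energy lists, which held 22 of the 1492. They were Ckm (muscle creatine kinase), Csrp3 (muscle LIM protein), Casq2 (cardiac calsequestrin), Ttn (titin), Cox6a2 and Actn2 (sarcomeric alpha-actinin). Csrp3, for example, read 10.64, 10.57 and 10.87 in Hopx-null lungs and 9.95, 10.58 and 11.10 in wild-type lungs. The other 4 were Adcyap1r1, a neuropeptide receptor gene, Gins1, a DNA replication factor gene, Fam183b and Ces1f. Likeness over 6 samples is a description, and the lists were chosen with earlier results of these data known. None of the 10 nearest genes passed the genotype test (limma, Benjamini-Hochberg, smallest adjusted p = 0.878).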

How the data were processed

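Total RNA of 3 Hopx-null and 3 wild-type E16.5 lungs was measured, per the labels, as biotin-labelled cRNA primed from poly(T), which favours 3' ends. The authors deposited values read here as log2 expression. The base is not stated and was inferred from their range. The submitters' processing notes name RMA and Partek 6.6 without role or order. The sources used here do not state background option or filters, and equalised distributions hide any shift common to most transcripts. Depth does not apply to arrays, so the number of arrays limits the precision.

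Of 45101 rows, 64 control probe sets were left out. The platform annotation named 1 gene for 34945 of the 45037 others, several for 932 and none for 9160. A gene was represented by its probe set with the highest mean. The genotype comparison used lmFit and eBayes of limma 3.58.1 (R 4.3.3) over all probe sets, with Benjamini-Hochberg adjustment at 0.05, and the procedure was tested on simulated data. Named genes were all members, Hopx, up to 3 genes per list with the largest change where fewer passed, and the 10 nearest profiles. Other probe sets that stand apart were named after their values were seen. Members and lists were chosen with earlier results of these data known. Alternatives were dim-probe filters, repeated quantile normalization, median centring, trend and robust variance, weighted arrays, a block for replicate number, Y-linked level as a covariate (Eif2s3y, Kdm5d and Uty, since Ddx3y had no probe set of its own), other probe set rules and each sample left out.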

Additional observations from a re-analysis of the deposited data

How the results depend on the processing

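No cardiac member passed in any alternative that was tested; the mean of all probe sets of a gene gave values only. Of all probe sets, 2 passed, and 1 with the replicate block or the Y-linked covariate, and 1 to 23 with 1 sample left out. The median member difference of 0.14 was 0.57 with the Y-linked covariate, which in effect sets Hopx-null lungs against wild-type replicate 1. With 1 sample left out it ran from -0.01 (wild-type replicate 1 omitted) to 0.30 (wild-type replicate 3 omitted). With that covariate Nppa (0.60) and Ryr2 (0.39) turned positive, and Tnnt2 was -0.11 by its most changed probe set. With 1 sample left out, ranges that crossed 0 were -1.32 to 0.56 for Nppa, -0.37 to 0.18 for Ryr2, -0.12 to 0.25 for Tnnt2, -0.04 to 0.14 for Actc1, -0.04 to 0.23 for Myl7 and -0.01 to 0.30 for Myl4. Myh6, Myh7, Myl2 and Tnni3 stayed positive in every alternative. With 1 sample left out their lowest values were 0.008, 0.38, 0.41 and 0.08, so Myh6 and Tnni3 came close to 0. The cause of the other shifts was not tested. Deviations of same-numbered samples from their genotype means had correlations of -0.0958, -0.121 and 0.183. With 3 samples per genotype and no reference value, these cannot decide whether the numbers mark pairs. The replicate block made no member pass (smallest adjusted p = 0.924, limma, Benjamini-Hochberg). The filter at the median mean left out Nppa. Counts per list without wild-type replicates 1 or 3 were chosen after seeing the data, and none of the 11 lists had a gene that passed there.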

Other observations

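Some factors known from the venous pole of the heart, where pulmonary vein muscle and the pacemaker arise, varied between lungs of 1 genotype. Shox2, a homeobox gene of that region, read 5.04, 4.91 and 5.35 in Hopx-null lungs and 3.85, 5.57 and 6.23 in wild-type lungs, so its lowest and highest values were both wild-type. Isl1, a factor of cardiac progenitors and of neurons, read 5.76, 4.30 and 6.11 in Hopx-null lungs and 4.69, 6.93 and 6.85 in wild-type lungs. It was thus low in Hopx-null replicate 2 and wild-type replicate 1 and high in wild-type replicates 2 and 3. The cartilage medians were low and high in the same lungs. Shox2 was likewise lowest in wild-type replicate 1 and highest in wild-type replicates 2 and 3. The part of cartilage in these values was not tested. Tbx3, which marks pacemaker tissue and is also strong in lung mesenchyme, was steady, from 11.93 to 12.21. Hspb7, a small heat shock protein gene of heart muscle, read 6.97, 6.91 and 7.79 in Hopx-null lungs and 6.22, 7.54 and 8.07 in wild-type lungs, again with both extremes in wild-type lungs.

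Several heart genes moved little with the member pattern although they are abundant in heart. Atp2a2, the calcium pump of the sarcoplasmic reticulum, stayed between 12.67 and 12.72 in all 6 lungs, and Tpm1, a tropomyosin gene, between 12.67 and 12.85. Both are also expressed in many other cells. Nebl, a Z-disc protein gene, was highest rather than lowest in wild-type replicate 1, at 11.93 against 11.66 to 11.87. These genes were picked after their values were seen.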
